A study of Rattus norvegicus with 30 samples.

Results

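A high and a low dose of phenobarbital were compared after 24 h in primary rat hepatocytes, 5 culture wells at 3000 µM against 5 at 300 µM. These are 10 of the 30 arrays of a dose and time series, chosen by the dose and time in their titles, and 31042 probe sets apart from the controls were measured on each. Cryopreserved hepatocytes of male Sprague Dawley rats, obtained from a supplier, were dosed on day 3 of culture on collagen under a Matrigel overlay. The other groups of the series, also 5 wells each, were vehicle at 24 h and, at 48 h, vehicle, 300 µM and 3000 µM. Every well, vehicle included, shared the plating, the medium and the overlay. The vehicle is water in the titles and culture medium in the field for the agent. No label ties a well to an animal or donor, and p-values therefore measure the spread among wells. Cells were looked at under a light microscope for visible death before harvest, and the labels give no outcome of that.

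Phenobarbital is the standard inducer of drug metabolism in liver. It acts mainly by way of the constitutive androstane receptor (CAR, gene Nr1i3), which moves into the nucleus and raises transcription of Cyp2b, Cyp2c and Cyp3a genes, of the heme enzyme Alas1 and of conjugating enzymes and transporters, and the related pregnane X receptor (PXR, gene Nr1i2) shares many of these targets. The integrated stress response is a separate program in which kinases phosphorylate the initiation factor eIF2alpha, general translation falls, and the factor ATF4 raises genes of amino acid uptake, amino acid synthesis and tRNA charging.

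At 3000 µM the cells held far less Cyp2b transcript than at 300 µM, and less of the transcripts for bile acid synthesis, fatty acid oxidation, glucose handling and amino acid breakdown. Transcripts of sterol synthesis, of the integrated stress response and of several tRNA synthetases were higher. Of 16596 probe sets tested, 4336 (26.1%) changed, 2310 (13.9%) higher and 2026 (12.2%) lower at 3000 µM (limma, adjusted p under 0.05). With array medians set equal, 4087 changed, 2724 higher and 1363 lower, so the split between higher and lower calls depended on the scaling (66.7% higher, against 53.3% as deposited). Most changes were small, with 74.1% of them under 1.5-fold, while 68 probe sets rose and 206 fell at least 2-fold. Of the 68 rises 39 were dim at 300 µM, and of the 206 falls 92 were dim at 3000 µM. With no filter on dim probe sets 117 rose and 282 fell at least 2-fold, and with array medians set equal 95 rose and 167 fell. Of 57 other probe sets of the named genes that changed, 39 changed the same way, 18 did not pass the test and 0 changed the opposite way. The 5 arrays of one dose lay wholly on one side of the 5 of the other for 22.3% of the probe sets tested. Counted with 1 probe set per gene, as in the gene lists below, 2936 of 9831 genes (29.9%) changed, 1690 (17.2%) higher and 1246 (12.7%) lower, and the median difference over these genes was 0.02 on the log2 scale. The share changed grew with signal, from 9.1% in the dimmest of 4 bins of probe sets to 43.6% in the brightest. For lists of mostly bright or mostly dim genes, 29.9% is therefore not a like background.

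The 10 arrays were alike in quality. Median signals were 349 to 380 at 3000 µM and 355 to 401 at 300 µM, and correlations between arrays of one dose were 0.937 to 0.942 at 3000 µM and 0.938 to 0.947 at 300 µM. The 3′ to 5′ ratio of the beta-actin control, a sign of RNA integrity, was 2.84 to 3.04 at 3000 µM and 2.61 to 2.93 at 300 µM. Both arrays that stood apart in the hybridization controls, 1 of vehicle at 24 h and 1 of 3000 µM at 48 h, lay outside the compared groups, and 4882 probe sets changed without them. All values below are log2 signals unless a fold is given, and a probe set counted as dim in a group when its mean was under 8.58, the median of all values.

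The transcripts that phenobarbital is best known for inducing were lower at the high dose or no different in the test. Cyp2b1 and Cyp2b2, the phenobarbital-inducible cytochromes P450, are read by a single probe set, which had 12.33, 11.52, 11.50, 11.67 and 11.67 on the 5 arrays at 3000 µM, against 15.04, 15.29, 15.04, 15.28 and 15.21 at 300 µM. The doses were far apart, a 10.8-fold lower signal at 3000 µM (log2 difference -3.43 ± 0.23, SE, adjusted p = 3.97e-12), and array 1 was the highest of its dose. In RNA from whole wells, fewer cells that hold a transcript and less of it per cell cannot be told apart. In dose order the means were 10.57 in vehicle, 15.17 at 300 µM and 11.74 at 3000 µM, so the high dose was still above vehicle (1.17, adjusted p = 0.00017). The probe set cannot tell the 2 genes apart. The differences from vehicle quoted throughout use the same dosed arrays as the comparison of doses and add no separate evidence to it. Against vehicle, 5319 probe sets changed at 3000 µM and 496 (2.99%) at 300 µM.

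Other CAR and PXR targets moved less. Cyp2c6v1, a P450 of the inducible Cyp2c family, had 15.48 to 15.63 at 3000 µM and 15.85 to 15.98 at 300 µM, without overlap (-0.36 ± 0.06, SE, adjusted p = 7.82e-06), and both doses stood well above vehicle at 13.89. Cyp3a2, a PXR target, averaged 12.14 ± 0.12 at 3000 µM and 12.18 ± 0.10 at 300 µM (SD, n = 5 each), with overlapping arrays (adjusted p = 0.841), against 11.50 in vehicle. Cyp3a23-3a1 averaged 16.27 ± 0.07 at 3000 µM and 16.29 ± 0.06 at 300 µM (SD, n = 5 each; adjusted p = 0.936), near 16.25 in vehicle, and is among the brightest probe sets of the array. The small differences of both Cyp3a probe sets changed sign with array medians set equal. Alas1, the rate-limiting enzyme of heme synthesis, had 13.04, 12.88, 12.99, 13.18 and 12.74 at 3000 µM, against 13.97, 14.13, 14.08, 14.17 and 13.86 at 300 µM. It fell 2.11-fold without overlap (adjusted p = 3.23e-09) and was slightly below vehicle, at 13.28. Por, the reductase that passes electrons to every microsomal P450, fell 1.65-fold (13.11 at 3000 µM, 13.84 at 300 µM, adjusted p = 6.24e-08), against 13.29 in vehicle. Cyp2a1 fell 2.44-fold (11.92 at 3000 µM, 13.21 at 300 µM, adjusted p = 1.03e-08), against 12.72 in vehicle. Of 22 phase I genes tested, 8 fell, 1 rose and 13 did not pass the test, with a median difference of -0.14. Their share changed was 40.9%, against 29.9% of all genes. The riser was Cyp3a18 (0.33).

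**Figure D1:**
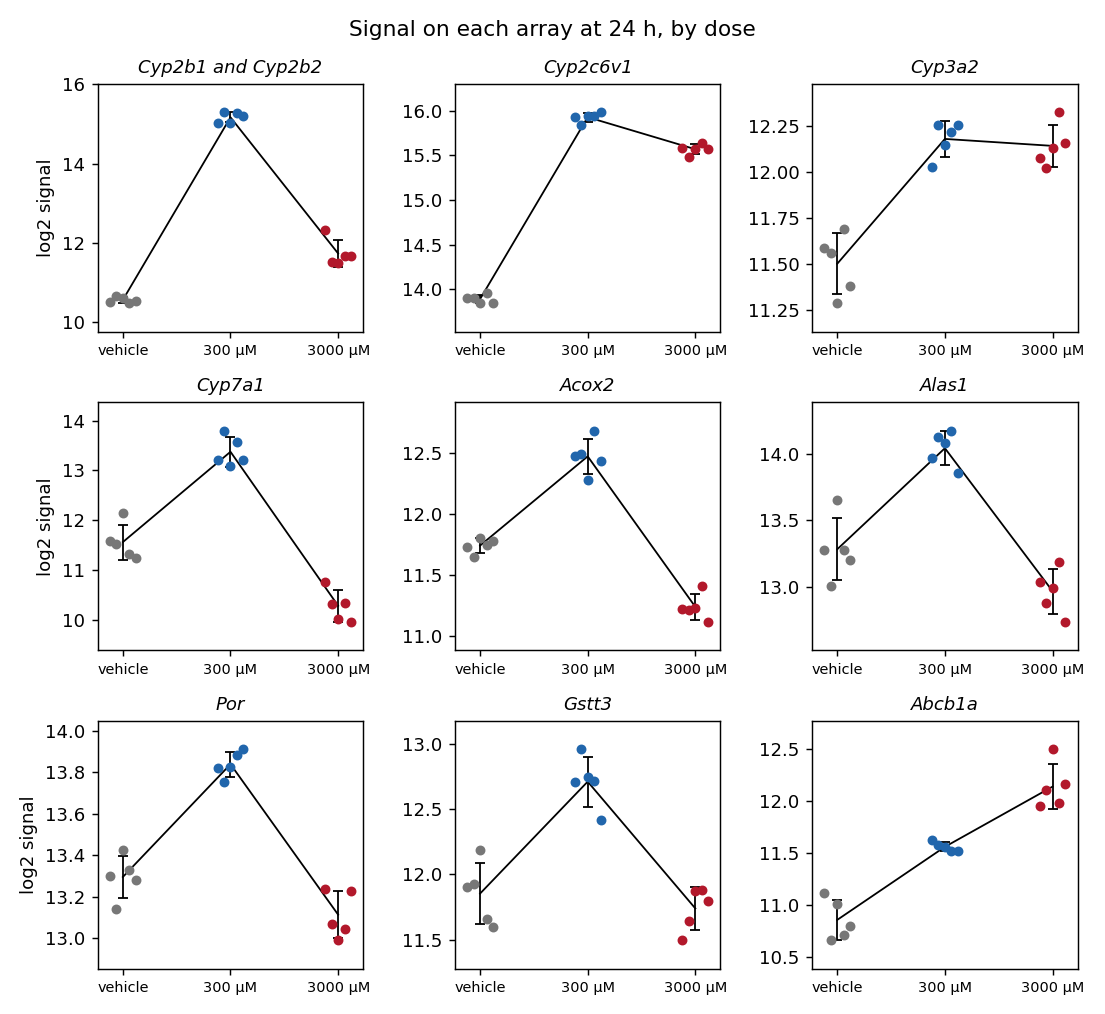
Log2 signal at 24 h (vertical axis) by dose (horizontal axis: vehicle, 300 µM, 3000 µM) for 9 probe sets, with 1 point per array and a line through the group means with their SD. Cyp2b1 and Cyp2b2, Cyp7a1, Acox2, Alas1, Por and Gstt3 peak at 300 µM, Cyp2c6v1 and Cyp3a2 stay high at 3000 µM, and Abcb1a climbs to 12.14.

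The receptor itself was also lower. Nr1i3 (CAR) had 10.20, 9.98, 10.10, 10.28 and 10.04 at 3000 µM, against 11.29, 11.32, 11.53, 11.49 and 11.51 at 300 µM. This was a 2.47-fold fall without overlap (-1.31 ± 0.17, SE, adjusted p = 5.75e-07), and the 300 µM mean of 11.43 was close to that of vehicle, 11.51. Nr1i2 (PXR) averaged 11.56 ± 0.12 at 3000 µM and 11.71 ± 0.05 at 300 µM (SD, n = 5 each) and did not pass the test (adjusted p = 0.194).

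Conjugating enzymes and transporters moved in both directions. Of 31 phase II genes tested, 5 rose and 9 fell (median -0.12). Sult1c2, a sulfotransferase, had 10.76, 10.71, 10.85, 10.70 and 10.84 at 3000 µM, against 9.15, 9.20, 9.01, 8.96 and 9.16 at 300 µM. It rose 3.2-fold with tight replicates (1.68 ± 0.08, SE, adjusted p = 4.06e-16), and the 300 µM mean of 9.10 matched the vehicle mean of 9.09. Gstk1, a mitochondrial and peroxisomal glutathione transferase, rose 2.1-fold (15.36 at 3000 µM, 14.28 at 300 µM, adjusted p = 3.87e-13), and Ugt2b10, a glucuronosyltransferase, rose 1.81-fold (12.98 at 3000 µM, 12.12 at 300 µM, adjusted p = 1.97e-09). Both climbed in steps with dose, Gstk1 having 13.92 and Ugt2b10 11.75 in vehicle. Gstt3, another glutathione transferase, went the other way and fell 1.96-fold (11.74 at 3000 µM, 12.71 at 300 µM, adjusted p = 2.58e-08), against 11.85 in vehicle. Nat1, an N-acetyltransferase, fell 1.52-fold (adjusted p = 6.05e-07).

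Among 18 transporters tested, 4 rose and 6 fell (median 0.02). Those that fell most carry bile acids and organic anions into hepatocytes. Slc10a1, the sodium-dependent bile acid importer, had 11.08 to 11.78 at 3000 µM and 12.25 to 12.59 at 300 µM (2.06-fold lower, adjusted p = 4.07e-08). Slco1b2, an organic anion importer, had 9.60 to 9.94 at 3000 µM and 10.39 to 10.80 at 300 µM (1.71-fold lower, adjusted p = 7.25e-06). The risers were Slco1a4, a CAR and PXR responsive importer (0.69, adjusted p = 0.000134), the multidrug exporter Abcb1a, the conjugate exporter Abcc2 (0.41) and Abcb4 (0.40). Abcb1a had 11.95, 12.10, 12.49, 11.98 and 12.16 at 3000 µM, against 11.62, 11.58, 11.56, 11.52 and 11.52 at 300 µM, and rose 1.49-fold without overlap (adjusted p = 7.02e-05). Of 26 targets of Nrf2, the factor of the oxidative stress response, 9 fell and 0 rose, with a median of -0.10. Their share changed was 34.6%, against 29.9% of all genes. Akr1b8, an aldo-keto reductase, fell 1.73-fold (adjusted p = 3.35e-05), Txnrd1, thioredoxin reductase, fell by 0.40 and Gclc, the catalytic subunit of glutathione synthesis, fell by 0.36. Of 7 targets of AhR, the dioxin receptor, 1 fell (Cyp1a2, -0.40) and 0 rose (median -0.16), 14.3% against 29.9% of all genes. At an unadjusted p under 0.05, 2 were lower and 0 higher.

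Both hydroxylases that set the amount and kind of bile acid made were among the largest falls. Cyp7a1, its rate-limiting enzyme, had 10.77, 10.32, 10.02, 10.34 and 9.96 at 3000 µM, against 13.21, 13.79, 13.09, 13.57 and 13.21 at 300 µM. The gap between the doses was 8.52-fold (-3.09 ± 0.25, SE, adjusted p = 8.76e-11), with vehicle between them at 11.56. The 300 µM arrays were above vehicle (1.81, adjusted p = 2.1e-05) and the 3000 µM arrays below it (-1.28, adjusted p = 0.00014). Cyp8b1, the 12-alpha-hydroxylase that makes cholic acid, had 9.03, 9.02, 8.52, 8.54 and 8.77 at 3000 µM, against 11.69, 11.62, 11.64, 11.64 and 11.59 at 300 µM. It fell 7.26-fold (adjusted p = 2.3e-12), and here the 300 µM mean of 11.64 lay under the vehicle mean of 12.28 without passing the test (adjusted p = 0.068). Acox2, the peroxisomal oxidase that shortens the bile acid side chain, fell 2.36-fold (11.24 at 3000 µM, 12.47 at 300 µM, adjusted p = 2.62e-12), and Cyp39a1, an oxysterol hydroxylase, fell 1.67-fold (adjusted p = 0.00245). Nr1h4, the bile acid receptor FXR, fell 1.64-fold (adjusted p = 8.79e-07). Of 17 members tested, 11 fell, 0 rose and 6 did not pass the test (median -0.39), among them Cyp27a1 of the alternative route.

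Fatty acid oxidation was the list with the highest share of members that fell. Of 35 targets of PPARalpha and enzymes of the pathway, 28 fell, 0 rose and 7 did not pass the test, and the median difference was -0.47. Cpt1a, which commits fatty acids to mitochondrial import, had 9.75, 9.83, 9.96, 9.74 and 9.67 at 3000 µM, against 10.96, 11.32, 10.92, 10.78 and 10.53 at 300 µM. The doses did not overlap (2.16-fold lower, adjusted p = 8.9e-08). Etfdh, which hands electrons from the acyl-CoA dehydrogenases to ubiquinone, fell 2.01-fold (adjusted p = 7.49e-11) and Hadh, a beta-oxidation dehydrogenase, 1.87-fold (adjusted p = 3.34e-11). Bdh1, the last enzyme of ketone body formation, fell 2.3-fold (adjusted p = 2.64e-07). Cyp4a1 (-0.88) and Pdk4 (-0.81), both well-known PPARalpha targets, fell as well. Plin5, a coat protein of lipid droplets, had the largest fall of the list (-2.17, adjusted p = 9.24e-06), but was dim at 3000 µM with 5.39 to 7.87. In the peroxisome list 13 of 27 fell and 1 rose (median -0.19), led after Acox2 by Pex11a, which drives peroxisome division (-0.87), Phyh, which starts alpha-oxidation (-0.62), and Dao and Ech1 (-0.55 each).

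**Figure D2:**
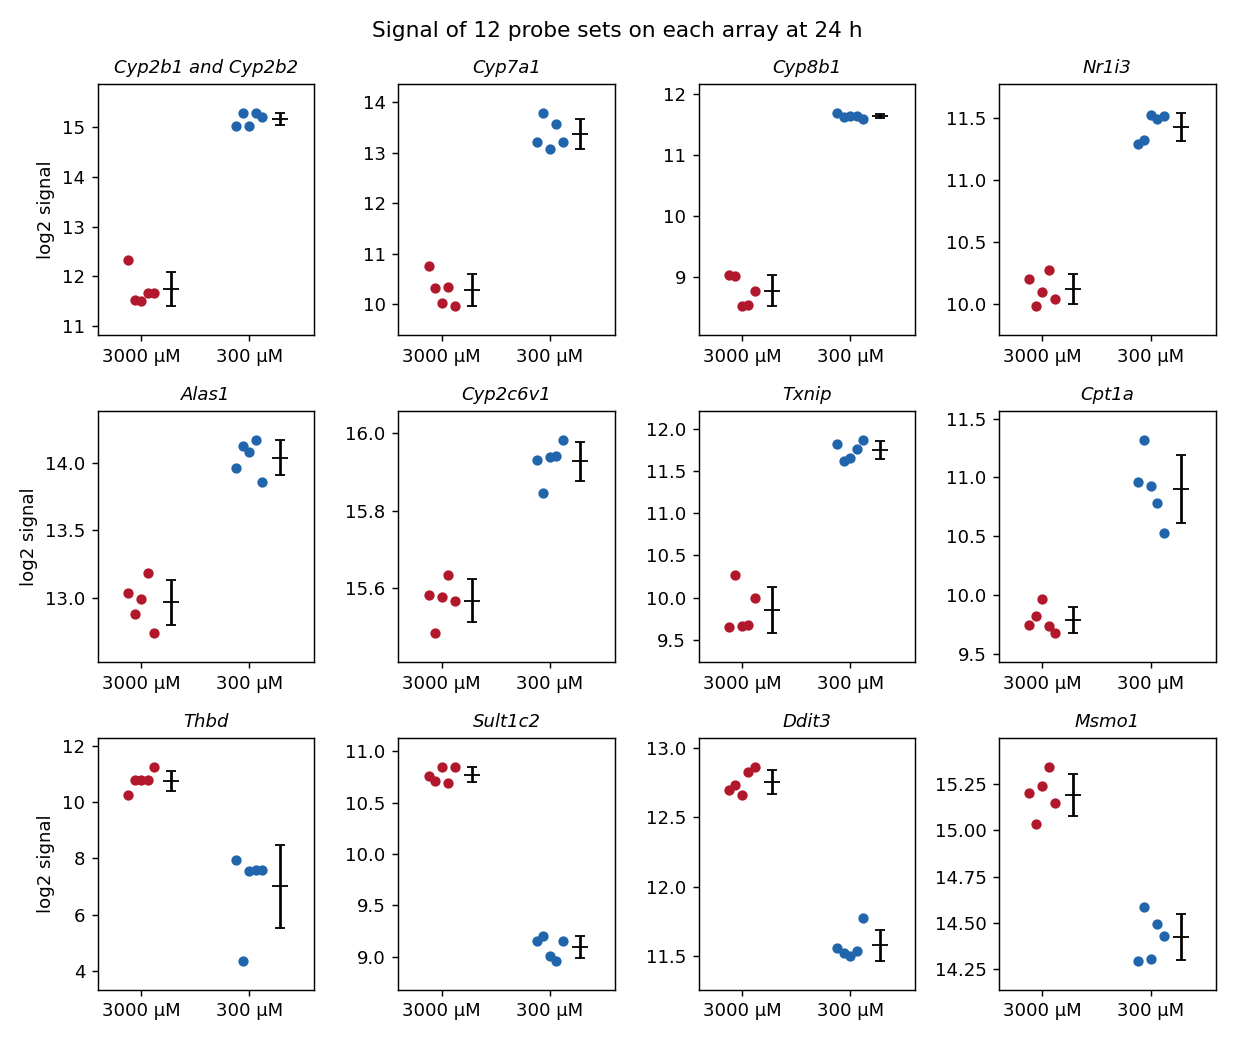
Log2 signal (vertical axes, each on its own scale) on each of the 5 arrays at 3000 µM (left, red) and at 300 µM (right, blue) for 12 probe sets, with group mean and SD as bars beside the points. In all 12 the arrays of the doses are separate, 8 lower and 4 higher at 3000 µM, and 1 array of Thbd at 300 µM lies far below the others at 4.36.

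Genes of glucose and glycogen handling fell together with them, 15 of 27 lower and 1 higher (median -0.47). Txnip, a glucose-responsive brake on glucose uptake, had 9.65, 10.27, 9.66, 9.67 and 9.99 at 3000 µM, against 11.82, 11.62, 11.66, 11.77 and 11.87 at 300 µM (3.73-fold lower, adjusted p = 1.9e-11). Gys2, liver glycogen synthase, fell 2.95-fold (adjusted p = 1.83e-08), with array 2 at 3000 µM well below the others at 10.08. Pc, pyruvate carboxylase, which starts gluconeogenesis, fell 2.17-fold (adjusted p = 6.82e-09), and Pklr, liver pyruvate kinase at the end of glycolysis, fell 2.04-fold (adjusted p = 9.03e-08). Ppp1r3b, which targets a phosphatase to glycogen, fell 1.93-fold (adjusted p = 2.58e-07). Slc2a5, the fructose transporter, was among the largest falls of the whole array (9.43 at 3000 µM, 11.22 at 300 µM, adjusted p = 1.56e-09). The riser was Pck2, the mitochondrial PEP carboxykinase (0.59, adjusted p = 7.69e-06), which is also a known ATF4 target.

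In the urea cycle and amino acid breakdown list 22 of 45 fell and 2 rose (median -0.22). Bhmt, which remethylates homocysteine with betaine, had 13.74 to 14.19 at 3000 µM and 15.20 to 15.52 at 300 µM (2.67-fold lower, adjusted p = 1.74e-09). Ftcd of histidine breakdown fell 2.29-fold (adjusted p = 7.08e-09), and Gldc of glycine cleavage fell 2.03-fold (adjusted p = 1.08e-06). Gpt, alanine aminotransferase, fell 1.91-fold (adjusted p = 4.22e-06) and Gnmt, which uses up methyl groups from S-adenosylmethionine, 1.84-fold (adjusted p = 5.75e-07). The 2 risers were Acmsd of tryptophan breakdown (0.75, adjusted p = 2.18e-08) and Tat, tyrosine aminotransferase (0.50, adjusted p = 9.16e-05).

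Sterol and fatty acid synthesis went opposite ways. Of 23 genes of cholesterol synthesis and SREBP2 targets, 12 rose, 1 fell and 10 did not pass the test (median 0.24). Msmo1, a demethylating oxidase of the late pathway, had 15.20, 15.03, 15.24, 15.34 and 15.15 at 3000 µM, against 14.30, 14.59, 14.30, 14.50 and 14.43 at 300 µM (1.71-fold higher, adjusted p = 8.73e-09). Cyp51, the lanosterol demethylase, rose 1.74-fold (14.39 at 3000 µM, 13.59 at 300 µM, adjusted p = 1.6e-09), and both genes were lowest in vehicle, at 13.98 for Msmo1 and 13.33 for Cyp51. Acat2, which makes acetoacetyl-CoA, rose by 0.72, Mvd by 0.57 and Idi1 by 0.55; Mvd and Idi1 serve the isoprenoid segment. Dhcr7, the last step to cholesterol, was the member that fell (-0.41, adjusted p = 0.000134). Of 27 lipogenic genes, 14 fell and 4 rose (median -0.25). Lpin1, which makes diacylglycerol, had 12.01 to 12.27 at 3000 µM and 13.25 to 13.42 at 300 µM (2.4-fold lower, adjusted p = 9.3e-12). Thrsp, a thyroid hormone responsive lipogenic protein, fell 2.23-fold (adjusted p = 3.69e-06), Acaca, acetyl-CoA carboxylase, 1.75-fold (adjusted p = 1.89e-09) and Acly, ATP citrate lyase, 1.66-fold (adjusted p = 2.31e-09).

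**Figure D3:**
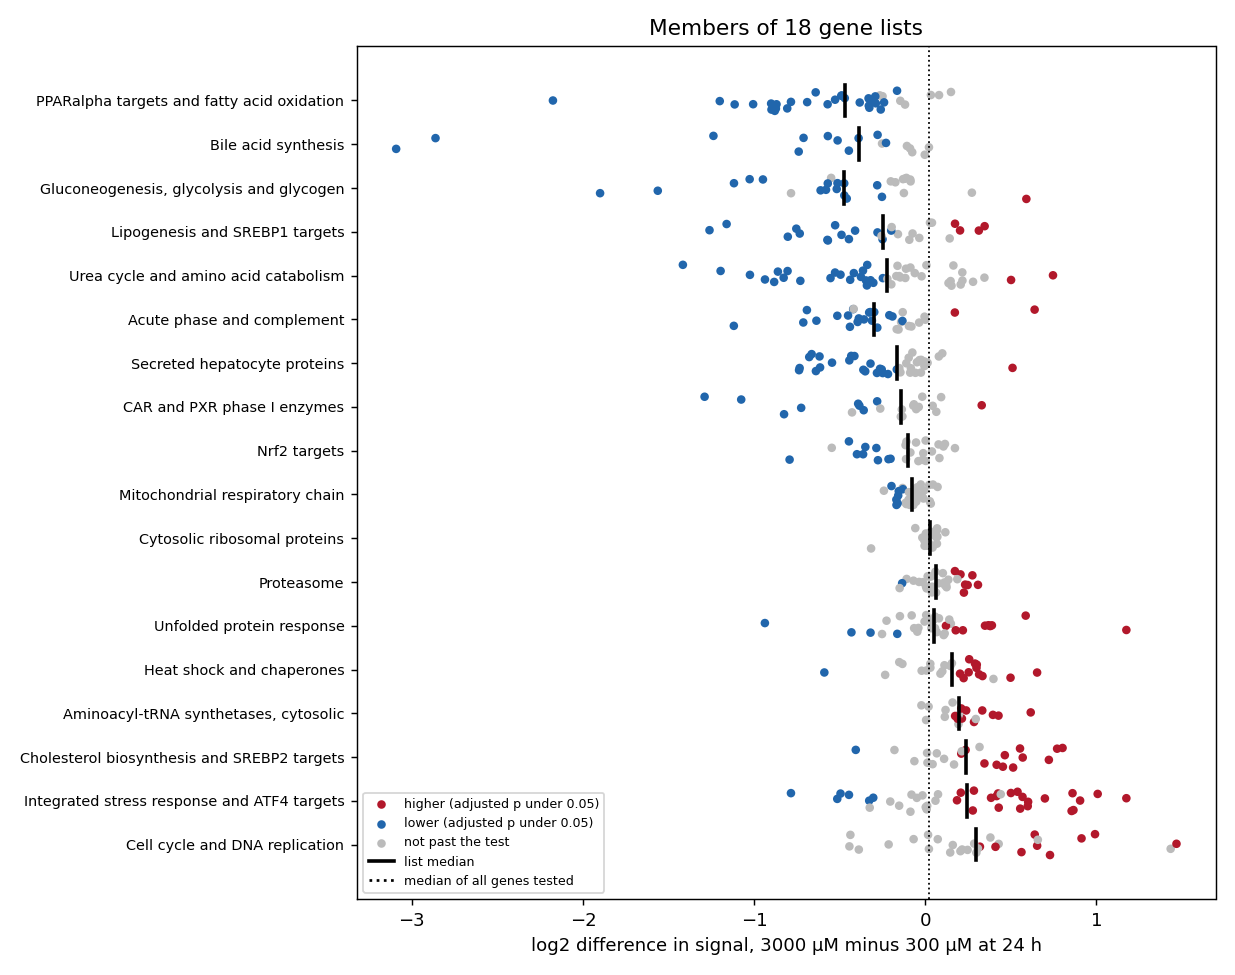
Log2 difference, 3000 µM minus 300 µM at 24 h (horizontal axis), for the members tested of 18 gene lists (rows), 1 point per gene, red where higher, blue where lower and grey where not past the test. Black bars are list medians, lowest at -0.47 for fatty acid oxidation and for glucose, and the dotted line is the median of all 9831 genes, 0.02.

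The integrated stress response was higher at 3000 µM in much of its list, 21 of 40 higher, 6 lower and 13 not past the test (median 0.24). Ddit3 (CHOP), a pro-apoptotic factor downstream of ATF4, had 12.69, 12.73, 12.66, 12.82 and 12.86 at 3000 µM, against 11.56, 11.52, 11.50, 11.54 and 11.77 at 300 µM. It rose 2.26-fold without overlap (adjusted p = 1.52e-11), and the 300 µM mean of 11.58 differed little from vehicle, 11.46. Atf3, a stress-induced repressor, rose 1.87-fold (adjusted p = 3.01e-08), Psph of serine synthesis 1.81-fold (adjusted p = 8.47e-13) and Gdf15, a secreted stress hormone, 1.82-fold (adjusted p = 0.00011). Slc7a5, the large neutral amino acid transporter, had 10.20 to 10.59 at 3000 µM and 9.09 to 9.93 at 300 µM (2.01-fold higher, adjusted p = 1.75e-05). Asns, asparagine synthetase, rose by 0.60 and Atf4 itself by 0.28 (adjusted p = 7.87e-06). Not all members moved this way. Fgf21, a liver hormone that is a target of both ATF4 and PPARalpha, had 11.59, 11.28, 11.46, 11.39 and 11.48 at 3000 µM, against 12.22, 12.31, 11.93, 12.21 and 12.44 at 300 µM, and fell (-0.78, adjusted p = 7.29e-08). Shmt2 (-0.51) of mitochondrial folate metabolism, Gpt2 (-0.49) and Ddit4 (-0.45), an inhibitor of mTORC1, fell too.

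Promoters were searched for the C/EBP-ATF response element TGATGNAA on both strands, in RefSeq windows (build GRCr8) of 300 bases, 250 before and 50 after each gene start. It was found in 3.98% of all 33469 windows and in 4.16% of the 27457 genes with a window. Of 37 stress response members with a window 7 held it, 5 of 18 that rose (Trib3, Chac1, Nupr1, Slc7a1 and Slc1a4), 1 of 6 that fell (Fgf21) and 1 of 13 that did not pass the test (Herpud1). The stretches of 50 bases below are written along each gene's strand, with the match in capitals, here always on the opposite strand, and show that Fgf21 holds the same 8 letters as Chac1 and Aars1 although it moved the other way. They are Trib3, a pseudokinase that binds ATF4 (chr3:161275526-161275575, minus strand), Chac1, a glutathione-degrading enzyme (chr3:126795943-126795992, plus strand), Aars1, alanyl-tRNA synthetase (chr19:55908349-55908398, plus strand), and Fgf21 (chr1:105221491-105221540, minus strand).
Trib3: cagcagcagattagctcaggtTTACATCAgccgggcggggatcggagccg
Chac1: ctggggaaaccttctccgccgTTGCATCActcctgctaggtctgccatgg
Aars1: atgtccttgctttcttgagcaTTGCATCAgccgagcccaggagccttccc
Fgf21: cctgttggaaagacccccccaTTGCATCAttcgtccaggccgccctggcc

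Of these, Trib3 had 13.07, 13.12, 13.15, 13.01 and 12.84 at 3000 µM, against 12.31, 12.07, 12.49, 12.32 and 12.50 at 300 µM (0.70, adjusted p = 1.8e-06). Chac1 had 12.56 to 12.86 at 3000 µM and 12.11 to 12.19 at 300 µM (0.54, adjusted p = 8.31e-06). Neither overlapped. The cytosolic tRNA synthetases, which load amino acids onto tRNAs, changed in one direction, 10 of 19 higher, 0 lower and 9 not past the test (median 0.20). Sars1 had 13.07 to 13.16 at 3000 µM and 12.40 to 12.69 at 300 µM (1.53-fold higher, adjusted p = 2.87e-08). Aars1 had 14.29, 14.38, 14.45, 14.32 and 14.43 at 3000 µM, against 13.89, 13.89, 13.90, 13.91 and 14.13 at 300 µM (0.43, adjusted p = 1.57e-05). Lars1 rose by 0.40, Nars1 by 0.33 and Farsb by 0.28. Of the 17 members with a window 7 held the element, 4 of 9 that rose (Aars1, Iars1, Nars1 and Yars1) and 3 of 8 that did not pass the test (Cars1, Mars1 and Tars1).

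In the unfolded protein response of the endoplasmic reticulum 9 of 34 members rose, 4 fell and 21 did not pass the test (median 0.05). Their share changed was 38.2%, against 29.9% of all genes, and Ddit3 is shared with the stress list above. Hspa5 (BiP), the main chaperone of that compartment, had 15.67, 15.76, 15.73, 15.79 and 15.71 at 3000 µM, against 15.51, 15.48, 15.55, 15.65 and 15.72 at 300 µM, overlapping and not past the test (0.15, adjusted p = 0.121). Xbp1, the factor activated by IRE1 splicing, had 14.01 to 14.22 at 3000 µM and 13.96 to 14.21 at 300 µM (adjusted p = 0.604), and these probe sets do not read splicing. Among those that rose, Sdf2l1, a chaperone partner, had 12.17 to 12.29 at 3000 µM and 11.48 to 11.77 at 300 µM (1.5-fold, adjusted p = 4.73e-08), and Selenos, of the degradation pathway, rose by 0.39. Dnajc3, a cochaperone that restrains the kinase PERK, rose by 0.22 (adjusted p = 0.00109). Ero1a, an oxidase of disulfide formation, fell 1.91-fold (adjusted p = 3.77e-06), while its other probe set had a difference of 0.31 that did not pass the test (adjusted p = 0.315). The ER stress response element, searched on both strands as CCAAT, any 9 bases and CCACG, was in 0.0657% of all windows, in 0.0765% of genes with a window and in 8 of 26 members with a window, 2 of 7 that rose (Canx and Dnajc3) and 6 of 17 that did not pass the test, Hspa5 and Xbp1 among them. No match of either motif overlapped one of the other. The stretches of Hspa5 (chr3:38452958-38453007), Dnajc3 (chr15:102432519-102432568) and Xbp1 (chr14:84604543-84604592), all on the plus strand with the match in capitals, show that members with the element include both kinds.
Hspa5: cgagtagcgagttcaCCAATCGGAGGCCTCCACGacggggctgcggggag
Dnajc3: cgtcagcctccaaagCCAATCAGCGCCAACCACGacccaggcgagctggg
Xbp1: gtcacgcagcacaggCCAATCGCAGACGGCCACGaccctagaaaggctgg

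Heat shock proteins and chaperones rose in 11 of 25 cases and fell in 1 (median 0.16). Dnajb4, a cochaperone of Hsp70, averaged 12.84 at 3000 µM and 12.19 at 300 µM, without overlap (1.57-fold higher, adjusted p = 4.17e-08). Hsph1, a nucleotide exchange factor of Hsp70, rose by 0.50, and Cct4 and Cct5 of the chaperonin that folds actin and tubulin by 0.33 and 0.31. The member that fell was Cryab, a small heat shock protein (-0.59, adjusted p = 7.92e-07). Of 31 proteasome subunits 7 rose and 1 fell (median 0.06), 25.8% against 29.9% of all genes. These subunits are bright, and in the brightest of 4 bins by mean signal 43.6% of probe sets changed. The largest rise was 0.31 for Psmd11, whose other probe set did not pass the test (-0.07, adjusted p = 0.28).

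Targets of p53 were split, 9 of 19 higher and 6 lower (median 0.19). Mdm2, the ubiquitin ligase that limits p53, had 12.79, 12.83, 12.95, 12.93 and 12.79 at 3000 µM, against 12.12, 12.16, 12.05, 12.03 and 11.97 at 300 µM (1.73-fold higher, adjusted p = 2.42e-11). Sesn2, an amino acid sensing inhibitor of mTORC1 and also an ATF4 target, rose 1.81-fold (adjusted p = 1.34e-07), Tp53inp1, an autophagy and apoptosis factor, 1.78-fold (adjusted p = 1.58e-06) and Gadd45b 1.69-fold (adjusted p = 7.89e-07). Cdkn1a (p21), the best known arrest gene of the pathway, fell instead (-0.59, adjusted p = 0.000187), as did Rprm, another arrest gene (-1.64, adjusted p = 1.13e-05), which was dim at 3000 µM. In the cell cycle list 9 of 29 members tested rose and 0 fell (median 0.30), 31.0% against 29.9% of all genes. Of the 29, however, 13 were dim at 1 dose or both, and 11 of 40 on the array were not tested. Stmn1, a microtubule regulator, was not dim at either dose, with 11.06 to 11.23 at 3000 µM and 9.82 to 10.41 at 300 µM (1.99-fold higher, adjusted p = 0.000144). Tubb5, a beta-tubulin from the list of cytoskeleton and matrix genes, was not dim at either dose and also rose (1.56-fold higher, adjusted p = 4.28e-08). Mcm4, of the replicative helicase, had 8.74 to 9.28 at 3000 µM and a dim 7.84 to 8.63 at 300 µM (adjusted p = 0.000982).

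Among nuclear receptors and hepatocyte transcription factors 10 of 27 fell and 1 rose (median -0.22), 40.7% against 29.9% of all genes. Foxa1, a pioneer factor of liver chromatin, had 8.85, 8.75, 8.98, 8.25 and 9.15 at 3000 µM, against 10.27, 10.12, 10.26, 10.21 and 9.97 at 300 µM (2.58-fold lower, adjusted p = 8.45e-08). Nr5a2, which supports Cyp7a1 and Cyp8b1 transcription, fell by 0.51 (adjusted p = 0.00221). Hnf4a, the master factor of hepatocyte identity, fell by 0.37 (adjusted p = 5e-05), and its other 2 probe sets, with differences of 0.15 and 0.24, did not pass the test. Cebpd was the riser (0.53, adjusted p = 0.0164).

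Secreted products of the hepatocyte were lower for many of their genes, 20 of 39 lower and 1 higher (median -0.17). Several well-known ones were not among them. Albumin averaged 16.37 at 3000 µM and 16.27 at 300 µM (adjusted p = 0.689), and Ttr (-0.02) and Apoa1 (-0.03) did not pass the test either. Fga, the fibrinogen alpha chain, had 14.50 to 14.62 at 3000 µM and 15.09 to 15.39 at 300 µM (1.67-fold lower, adjusted p = 7.11e-09). Its other probe set, dimmer with 11.26 at 3000 µM and 12.89 at 300 µM, had a larger fall (-1.64, adjusted p = 3.19e-11). Mttp, which loads lipid onto nascent lipoproteins, fell 1.66-fold (adjusted p = 4.86e-08), Lcat, the plasma cholesterol esterifier, 1.58-fold (adjusted p = 1.74e-09) and Apob 1.56-fold (adjusted p = 3.85e-06), the other probe set of Apob being dimmer and not past the test (0.05, adjusted p = 0.932). Acute phase and complement genes fell in 19 of 31 cases and rose in 2 (median -0.30). Complement C5 fell 2.17-fold (adjusted p = 9.18e-08), Il6r, the interleukin 6 receptor, 1.64-fold (adjusted p = 1.17e-05) and Mbl1, a lectin of the complement cascade, 1.61-fold (adjusted p = 1.53e-05). Il1r1, the interleukin 1 receptor, rose, with 12.32 to 12.46 at 3000 µM and 11.46 to 11.90 at 300 µM (adjusted p = 1.53e-08).

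Of 19 genes of the growth hormone axis 7 fell and 0 rose (median -0.20), 36.8% against 29.9% of all genes. Bcl6, a repressor of female-biased genes, was 2.04-fold lower (adjusted p = 2.19e-06) and Igf1 1.53-fold lower (adjusted p = 4.4e-07). The other probe sets of Igf1, which are dimmer, had larger falls (-1.24 and -1.05). Interferon response genes were split, 6 of 27 higher and 3 lower (median -0.12). The share changed, 33.3%, was near the 29.9% of all genes. Rsad2 (viperin) had 10.88 to 11.47 at 3000 µM and 9.58 to 10.34 at 300 µM (2.39-fold higher, adjusted p = 6.01e-06), and the immunoproteasome subunits Psmb8 (0.77) and Psmb9 (0.67) rose. Isg15, a ubiquitin-like modifier, fell (-0.98, adjusted p = 0.00688), as did Oas1a (-0.66). Among 27 cytokine, NF-kB and immediate early genes 6 rose and 3 fell (median 0.03), again a share of 33.3%. Klf10, a TGF-beta inducible repressor, was 2.57-fold lower (adjusted p = 1.31e-09) and Nfkbia, the NF-kB inhibitor, higher by 0.36.

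Lysosome and autophagy genes rose in 5 of 32 cases and fell in 4 (median 0.01). The share changed, 28.1%, was near the 29.9% of all genes. Ulk1, the kinase that starts autophagy, fell 2.06-fold (adjusted p = 4.35e-08), while Gpnmb, a lysosomal stress protein, rose 1.7-fold (adjusted p = 1.59e-08) and Neu1, a sialidase, 1.65-fold (adjusted p = 6.77e-06). In the clock list 3 of 12 rose and 2 fell (median 0.06), 41.7% against 29.9% of all genes. That share leans on marginal calls, as Bmal1 and Nr1d2 each missed the threshold in 9 of 20 alternatives and Cry1 in 8. Npas2, a partner of Bmal1, fell 2.05-fold (adjusted p = 4.35e-07). Heme and iron genes fell in 6 of 22 cases and rose in 2 (median -0.13), 36.4% against 29.9% of all genes. Steap3, an endosomal iron reductase, was the larger rise (0.88). Of 40 respiratory chain subunits 7 fell, 0 rose and 33 did not pass the test (median -0.08), and none of the 5 largest, Cox8a (-0.20), Sdha, Atp5f1b, Ndufs8 and Ndufa9, passed the test with array medians set equal. Their share changed as deposited was 17.5%, against 29.9% of all genes. Of 26 cytosolic ribosomal proteins 0 passed limma's test in either direction, and 0 did at an unadjusted p under 0.05 (median 0.03).

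Where 0 members changed in a direction, few or none did at an unadjusted p under 0.05. These were 0 higher for fatty acid oxidation, for bile acid synthesis and for the respiratory chain, 1 higher each for Nrf2 targets and the growth hormone axis, 0 lower for the tRNA synthetases and 1 lower for the cell cycle list.

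Several of the largest rises began at the edge of detection. Thbd, thrombomodulin, the thrombin receptor of vessel walls, had 10.25, 10.81, 10.78, 10.78 and 11.26 at 3000 µM, against 7.93, 4.36, 7.57, 7.57 and 7.57 at 300 µM. The doses were apart (3.78 ± 0.51, SE, adjusted p = 9.09e-07), but 300 µM and vehicle were dim, so the size is imprecise, and its other probe set gave 2.09 (adjusted p = 0.0123). Rises were ranked with 1 probe set per gene, the brightest, where the doses did not overlap and the higher dose was not dim. Of the 15 largest, 11 were dim at 300 µM in the same way. They were Thbd, Shc4, a signalling adaptor (2.15), Borcs6 of lysosome positioning (2.05), Tnfrsf1b, a TNF receptor (1.99), Wif1, a secreted Wnt inhibitor (1.82), Scamp5 (1.58), Rgs19 (1.53), Flvcr2 (1.48), Il1rl1, the interleukin 33 receptor (1.31, with its other probe set at 0.29, adjusted p = 0.403), Trim59 (1.28) and Kazn (1.27). For Scamp5 the difference was 0.94 without array 3 at 300 µM, which lay at 5.10. The 4 rises measured at both doses were Sult1c2, Sat2, an acetyltransferase (10.40 at 3000 µM, 8.76 at 300 µM, adjusted p = 2.31e-10), Cmpk2, a mitochondrial nucleotide kinase (10.44 at 3000 µM, 8.85 at 300 µM, adjusted p = 6.04e-08), and Prrg4, a membrane protein (10.50 at 3000 µM, 9.02 at 300 µM, adjusted p = 2.56e-08). For Cmpk2 the other probe set rose less (0.64, adjusted p = 0.00172).

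Falls were ranked by the same rule, which takes probe sets with 1 symbol and so leaves out that of Cyp2b1 and Cyp2b2. Of the 15 largest, 6 were dim at 3000 µM. Those 6 were Clec14a, a lectin of endothelial cells (-3.46, adjusted p = 0.000522, with array 3 at 2.07), the homeobox gene Meox2 (-3.16), Plin5, Tdh, threonine dehydrogenase (-1.84), Cyp17a1, a steroid hydroxylase (-1.77), and Rprm. Meox2 was dim in vehicle too, at 6.94, and averaged 9.55 at 300 µM. Beyond Cyp7a1, Cyp8b1, Txnip and Slc2a5, the others included Synrg, an adaptor of vesicle traffic, with 10.43 to 10.64 at 3000 µM and 12.28 to 12.52 at 300 µM (3.59-fold lower, adjusted p = 9.98e-17). Poteml2 fell 5.04-fold (11.30 at 3000 µM, 13.64 at 300 µM, adjusted p = 1.11e-08). Prkcb, protein kinase C beta, had 8.56 to 9.10 at 3000 µM and 10.23 to 11.24 at 300 µM (4.69-fold lower, adjusted p = 5.41e-08), and its other probe set fell by 1.43. Lox, the collagen cross-linking oxidase, had 12.08 to 12.37 at 3000 µM and 13.17 to 14.27 at 300 µM (3.19-fold lower, adjusted p = 2.62e-07), and its other probe set fell by 1.59. Acta1, skeletal muscle actin, fell 3.22-fold (adjusted p = 7.15e-06). In the list of cytoskeleton and matrix genes that holds Acta1 and vimentin (Vim, -0.73), 9 of 33 fell and 4 rose (median -0.06). The share of that list that changed was 39.4%, against 29.9% of all genes.

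The hepatocyte markers were bright, and many markers of other liver cells were dim. All 13 hepatocyte markers reached the level for testing at both doses, with a summed signal of 525850 to 561938 at 3000 µM and 518310 to 618636 at 300 µM. Of 13 tested 4 fell (Apob, Asgr1, Fgb and Hnf4a) and 1 rose (Tat). For stellate cells and fibroblasts 12 of 19 markers were dim at both doses, Pdgfrb, Lrat, Dcn and Lum among them, and the summed signal was 4630 to 5733 at 3000 µM and 6150 to 7494 at 300 µM, without overlap. Of 8 tested, 3 fell, Col5a2 (-1.12), Rgs5 (-0.71) and Col1a1 (-0.68, dim at 3000 µM with 8.22). Their part in the falls of Lox and Acta1 was not tested. For endothelial cells 13 of 18 were dim at both doses, Pecam1, Tek, Stab2, Vwf and Lyve1 among them. The summed endothelial signal was 5160 to 6193 at 3000 µM and 4296 to 4623 at 300 µM, and Thbd and Clec14a, themselves on that list, moved in opposite directions. The other endothelial markers that were not dim had close levels, with 9.06 at 3000 µM and 9.08 at 300 µM for Kdr, 9.22 at 3000 µM and 9.21 at 300 µM for Egfl7, and 9.22 at 3000 µM and 9.09 at 300 µM for Eng. Macrophage markers summed to 28167 to 30768 at 3000 µM and 26817 to 30574 at 300 µM. Of 17 such markers 7 were dim at both doses, Adgre1, Ptprc and Cd163 among them. Others were bright, Cd14 with 13.70 at 3000 µM and 13.77 at 300 µM, and Lyz2 with 13.36 at 3000 µM and 13.10 at 300 µM. Cd68 (0.47) and Lyz2 (0.26) rose and Mrc1 fell (-0.44). Cholangiocyte markers summed to 13473 to 14675 at 3000 µM and 13140 to 14736 at 300 µM. Of 11 such markers 6 were dim at both doses, Krt7 and Krt19 among them, while Epcam was bright (13.25 at 3000 µM, 13.11 at 300 µM). Of 5 tested, 1 rose (Epcam, 0.14) and 1 fell (Ggt1, -0.36). Lymphocyte markers summed to 2632 to 3212 at 3000 µM and 3122 to 4143 at 300 µM, with 12 of 15 dim at both doses. Of 4 tested, 2 were lower, Cd4 (-1.33) and Ltb (-0.90). Cd4 was dim at 3000 µM, with 7.44 against 8.77 at 300 µM, so its size is imprecise. The part of these cell types in the results was not tested.

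The same contrast on the separate arrays harvested at 48 h gave largely the same picture. There 5790 probe sets changed (34.9%), 2977 higher (17.9%) and 2813 lower (16.9%), and 5866 did without the 2 arrays that stood apart. Of the 24 h calls, 76.5% were called in the same direction at 48 h, which is 57.3% of the 48 h calls, and 4 were called in opposite directions. Of 274 probe sets changed at least 2-fold at 24 h, 233 were called the same way at 48 h. The Cyp2b1 and Cyp2b2 probe set averaged 10.95 ± 0.83 at 3000 µM and 14.53 ± 0.13 at 300 µM at 48 h (SD, n = 5 each; -3.58, adjusted p = 5.04e-13). Its vehicle mean at 48 h was 10.82.

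**Figure D4:**
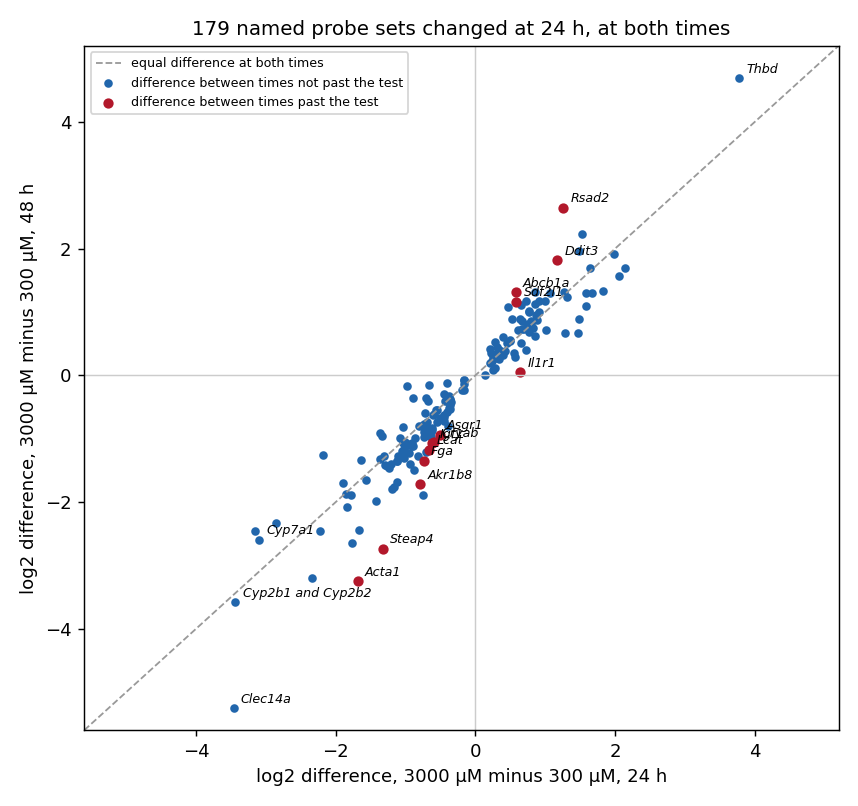
Log2 difference, 3000 µM minus 300 µM, at 24 h (horizontal axis) and at 48 h (vertical axis) for the 179 named probe sets that changed at 24 h, with the dashed line marking equal differences. Of these 178 have the same sign at both times, and the 13 in red are those whose difference between the times passed the test.

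The dose difference itself differed between the times for 124 probe sets (0.747%), 37 higher (0.223%) and 87 lower (0.524%) at 48 h. Without the 2 arrays that stood apart it was 133. The count depended on the scaling and on single arrays. It was 36 with array medians set equal, 12 higher and 24 lower, and 69 with the compared groups alone. It was 71, 81 and 80 without arrays 1, 4 and 5 at 3000 µM and 24 h, 301 without array 1 at 3000 µM and 48 h, and 78 and 82 without arrays 1 and 2 at 300 µM and 48 h. Of 15 named probe sets that passed, 10 did so in all 29 alternatives run. The largest of these was Egr2, an immediate early factor, which averaged 8.80 at 3000 µM and 8.69 at 300 µM at 24 h (adjusted p = 0.736), and 8.45 at 3000 µM and 9.92 at 300 µM at 48 h (difference between times -1.58, adjusted p = 0.00167). Steap4, a metalloreductase, averaged 12.19 at 3000 µM and 13.51 at 300 µM at 24 h, and 10.78 at 3000 µM and 13.52 at 300 µM at 48 h (-1.41, adjusted p = 0.00178). For 1 probe set shared by Srprb and Tf the difference was also more negative at 48 h (-1.41, adjusted p = 0.00995). At 24 h it did not pass the test (-0.52, adjusted p = 0.0575). Another probe set of these genes had 16.25 at 3000 µM and 16.33 at 300 µM at 24 h (-0.08, adjusted p = 0.639). Rsad2 averaged 11.13 at 3000 µM and 9.87 at 300 µM at 24 h, and 12.95 at 3000 µM and 10.30 at 300 µM at 48 h (1.39, adjusted p = 0.00772). Il1r1 lost its rise, with 11.44 at 3000 µM and 11.39 at 300 µM at 48 h (-0.59, adjusted p = 0.00167). The rise of Abcb1a was larger at 48 h (0.74, adjusted p = 0.00891), and so was that of Sdf2l1 (0.58, adjusted p = 0.00167). Acta1 also passed (-1.56, adjusted p = 0.0332), but in 15 of the 29 alternatives only.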

How the data were processed

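RNA from cultured rat hepatocytes was measured on an Affymetrix whole-genome rat array, 1 array per well. The deposited values are linear probe set intensities, which the submitters' processing notes credit to MAS5. Their trimmed mean, with 2% removed at each end, was 1500.6 to 1500.7 on every array. Replicates were not pooled, and the precision is limited by the number of arrays, 5 per group.

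The deposited intensities were taken to log2 with no constant added. A probe set was tested when the highest of the 6 group means reached 8.58 on the log2 scale, the median of all values, which left 16596 of 31042. limma 3.58.1 in R 4.3.3 was fitted to all 30 arrays with trended and robust eBayes, and p-values were 2-sided and adjusted by Benjamini-Hochberg over all probe sets tested. Of the probe sets tested, 12971 had 1 gene symbol in the platform annotation, 331 several and 3294 none. Gene lists used 1 probe set per gene, the brightest over all arrays. In simulated data limma called 64% of probe sets changed by 1.5-fold and 96% of those changed by 2-fold, and 3.4% of its calls were false. The simulated noise was normal and independent, and only 50 of 16596 probe sets changed at each fold. The real arrays had 4336 calls, so these rates need not hold for them.

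The groups, 37 gene lists and members were chosen with earlier results of these data known. Genes were named if they were among the 15 largest rises or falls whose doses did not overlap, the 5 largest changes of a list, the 5 largest differences between times, or drug metabolism genes named in the rule. Of the symbols that are only a locus identifier, 2 were passed over among the falls. Every other gene, such as Alb, Ttr, Apoa1, Asns, Atf4, Trib3, Chac1, Fgf21, Hspa5, Xbp1, Dnajc3, Dhcr7, Pck2, Acmsd, Cyp4a1, Pdk4 and Cdkn1a, was chosen after its values were seen. Some lists share members. Alternatives covered scaling, the dim-signal limit, the constant, the model and leaving out arrays.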

Additional observations from a re-analysis of the deposited data

Results flagged for a closer look

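In 29 of 368 groups of 5 arrays (7.9%, where chance gives about 5%) the highest or lowest array stood far from the other 4, 13 times at 3000 µM and 16 times at 300 µM. Thbd had 4.36 on array 2 at 300 µM with the others at 7.57 to 7.93, Clec14a had 2.07 on array 3 at 3000 µM with the others at 5.55 to 6.52, and Scamp5 had 5.10 on array 3 at 300 µM with the others at 7.96 to 8.64. Borcs6 (7.86, array 4) and Flvcr2 (5.72, array 4) had such an array at 300 µM and Tnfrsf1b (8.72, array 5) at 3000 µM.

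At 3000 µM array 1 was apart for Cyp2b1 and Cyp2b2 (12.33), Poteml2 (11.70), Lpin1 (12.27) and Igfbp4 (10.63). Array 2 at 3000 µM was apart for Akr1b8 (12.12), Gys2 (10.08), Gadd45b (12.23), Hrg (13.61) and Epcam (13.16), array 4 for Cyp3a23-3a1 (16.39) and array 5 for Cebpd (10.61). At 300 µM array 2 was apart for Prkcb (10.23), Synrg (12.52), Tdh (9.03), Ero1a (12.18), Ulk1 (10.78) and Epcam (12.96). Array 3 at 300 µM was apart for Rprm (8.18) and Bub1 (7.12), array 5 for Ddit3 (11.77), Aars1 (14.13) and Igfbp4 (10.95), and array 1 for Nfkbia (11.55).

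The difference between doses itself differed between 48 h and 24 h, by limma's test of that difference, for 15 named probe sets. It was more negative at 48 h for Egr2 (-1.58), Acta1 (-1.56), Steap4 (-1.41), 1 probe set of Srprb and Tf (-1.41), Akr1b8 (-0.93), Fga (-0.61), Il1r1 (-0.59), Lcat (-0.51), Cryab (-0.47), Igf1 (-0.45) and Asgr1 (-0.43). It was more positive for Rsad2 (1.39), Abcb1a (0.74), Ddit3 (0.64) and Sdf2l1 (0.58). Of these, Acta1, Ddit3, Cryab, Igf1 and Asgr1 missed the threshold in at least 1 of 29 alternatives.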

How the results depend on the processing

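The count of probe sets that differed between 3000 µM and 300 µM at 24 h stayed within 1.5 times of 4336 in all 20 alternatives, at 3849 to 5488, and was 3862 with no filter on dim probe sets, where 117 rose at least 2-fold against 68 with the filter. Of 179 named probe sets that changed, 162 did so in all of these and 17 missed the threshold in at least 1 (Scd2, Prc1, Bub1, Mcm6, Tfr2, Cebpd, Bmal1, Cry1, Nr1d2, Cox8a, Sdha, Atp5f1b, Ndufs8, Ndufa9, Cd68, Ggt1 and Epcam), and 0 changed sign. Of those that did not pass, Cyp3a23-3a1 changed sign with array medians centred (0.0465), with quantile normalization (0.0079) and lay between -0.0473 and 0.0015 with 1 array left out, above 0 without array 3 at 300 µM, and Cyp3a2 changed sign with array medians centred (0.026). The count of differences between the times, 124, was 36 with array medians centred, 69 with the compared groups alone, 71 with no filter on dim probe sets and 82 with no trend or robust estimation, and 71 to 301 with 1 array left out. Leaving out each dosed 48 h array was chosen after seeing the data. The cause of these shifts was not tested. Sets of 6 running numbers in the labels were checked as a possible pairing of wells. Deviations from the group means at the compared doses correlated at -0.0032 to 0.0404 within a set, against -0.0343 to 0.0287 between sets. These correlations were small, though sets 3 (0.0322) and 4 (0.0404) lay above all pairs from different sets. The main fit did not pair the wells, and with the sets as a replicate block 4347 probe sets changed at 24 h and 121 between the times. With the probe sets tested split by mean signal into 4 equal bins, 43.6% changed in the brightest bin and 9.1% in the dimmest, with median SEs of 0.071 and 0.231.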
